A study of Mus musculus with 12 samples.

Results

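The 10 genes described here, Dnah6, Suclg1, Tacr1, Pde1c, Avl9, Ppm1k, Pyurf, Lancl2, Gprin3 and Wdr54, lie on mouse chromosome 6 within 20 Mb of Gadd45a, a stress-response gene and the target of the knockout. They were chosen by their difference in hippocampal RNA between libraries labelled Wildtype and libraries labelled Gadd45a-KO, so that difference is given as a description. Where the text says that one of them was or was not past the threshold, under any setting, it describes values of the comparison that chose them and gives no support to the difference. They are 10 of the 37991 genes in the count files, and all 10 were among the 16399 genes with enough reads to be tested. The study asked which hippocampal transcripts depend on Gadd45a after an aversive learning task. It sequenced poly(A) RNA from 12 hippocampi, 6 labelled Wildtype and 6 labelled Gadd45a-KO. The mice were siblings from crosses of Gadd45a heterozygotes on C57BL/6N, aged 6 to 7 months, and every mouse had passed through the passive avoidance (PA) test, in which a mouse learns to avoid a compartment where it received a foot shock, 1 h before the tissue was taken. No untrained mice were included, so training is shared by every library. In the knockout allele, which is present in every cell, the first exons of Gadd45a were replaced by a neomycin resistance cassette driven by the Pgk1 promoter, and the last exon remained.

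Genes that sit near each other on a chromosome are inherited together, because recombination between close positions is rare. In a cross of heterozygotes the chromosome 6 stretch linked to a targeted Gadd45a allele therefore passes to the offspring along with that allele. A difference that comes with the linked stretch and a difference that comes with the loss of Gadd45a cannot be told apart in these 12 libraries. The 10 genes have unrelated roles: a ciliary motor chain, a mitochondrial enzyme of the citric acid cycle, a neuropeptide receptor, a phosphodiesterase, a phosphatase, and several less studied proteins.

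Gadd45a itself was checked first, and its reads went against the labels. The libraries labelled Wildtype held 102 to 154 Gadd45a reads (2.19 to 3.43 reads per 1000000 reads on genes, with TMM scaling, written CPM) and those labelled Gadd45a-KO held 946 to 1179 (20.5 to 23.1 CPM). Counts were made over the whole gene, so they do not separate the replaced exons from the one that remained, and they check the deletion in neither direction. E230016M11Rik, a neighbouring transcript whose start also lies at the Gadd45a locus, moved the opposite way, from 147 to 194 reads in the Wildtype libraries to 4 to 14 in the Gadd45a-KO libraries. Directions below are therefore those of the labels as deposited.

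Depth overlapped between the labels. Reads on genes ranged from 44594261 to 55540601 per library, with a median of 51862074 in the Wildtype libraries and 50055667 in the Gadd45a-KO libraries (two-sided exact permutation test, p = 0.450, n = 6 and 6). The share of counted reads that met no annotated exon of the counted strand was 13.03% to 14.26% in the Gadd45a-KO libraries. It was higher in every Wildtype library (14.4% to 15.8%, exact permutation p = 0.00216, the smallest that 6 against 6 can give). This share includes intronic and antisense reads. Hippocampal principal neuron markers were abundant in all 12 libraries, with summed levels of 1316 to 1409 CPM (Wildtype) and 1034 to 1339 CPM (Gadd45a-KO). Every Gadd45a-KO library except number 1 (1339 CPM) lay below every Wildtype library, at 1034 to 1250 CPM. The median log2 difference of these markers was -0.22, against 0.00 over all tested genes, and its cause was not tested. Zbtb20 was the only 1 of the 8 past 1% false discovery rate (FDR), lower with a log2 difference of -0.43. Summed CPM over 9 tested thalamic markers stood at 305 in Gadd45a-KO 2 and 458 in Gadd45a-KO 3. It was 86.7 to 128 in the 10 other libraries (0 of the 9 at 1% FDR by edgeR or DESeq2, 7 at an unadjusted p under 0.05). For the 10 genes, values without these 2 libraries are therefore given where they end a call, and for all 10 at the end. They are not given for the other genes named. Without the 2 libraries, 3 genes of the marker and pathway lists were past 1% FDR, against 6 with all 12. Within 20 Mb of Gadd45a 11 genes were past it, against 15 with all 12.

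The 3 genes that were higher in the libraries labelled Gadd45a-KO were Dnah6, Suclg1 and Tacr1. Among all tested genes, 4 were higher at 1% FDR (edgeR quasi-likelihood fit, p-values adjusted by Benjamini and Hochberg over all tested genes), which is 0.0244%, and these 3 are among them because that comparison chose them. The fourth was Gadd45a.

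Dnah6 encodes a heavy chain of the dynein motors that bend motile cilia. It had the largest difference of the 10. In the Wildtype libraries its level ran from 0.487 CPM through a median of 2.82 to 3.71, and in the Gadd45a-KO libraries from 6.53 through 11.7 to 19.4. The groups did not overlap: the lowest Gadd45a-KO library, number 2, stood above the highest Wildtype library, number 3. Means were 2.40 ± 1.31 and 11.9 ± 4.34 CPM (SD, n = 6 each), a fold of 4.97, or a log2 difference of 2.31 with a standard error of 0.36. Dnah6 also varied most within a label, with a coefficient of variation of 54.5% among Wildtype and 36.5% among Gadd45a-KO libraries. These levels rested on 27 to 202 reads per Wildtype library and 297 to 942 per Gadd45a-KO library. In bulk tissue, fewer cells of a type and less RNA per cell cannot be told apart, for Dnah6 as for the other 9. The gene covers chr6:72967600-73171645 on the minus strand (NCBIM37, GENCODE M1), has up to 77 exons and starts 5.98 Mb from Gadd45a.

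**Figure D1:**
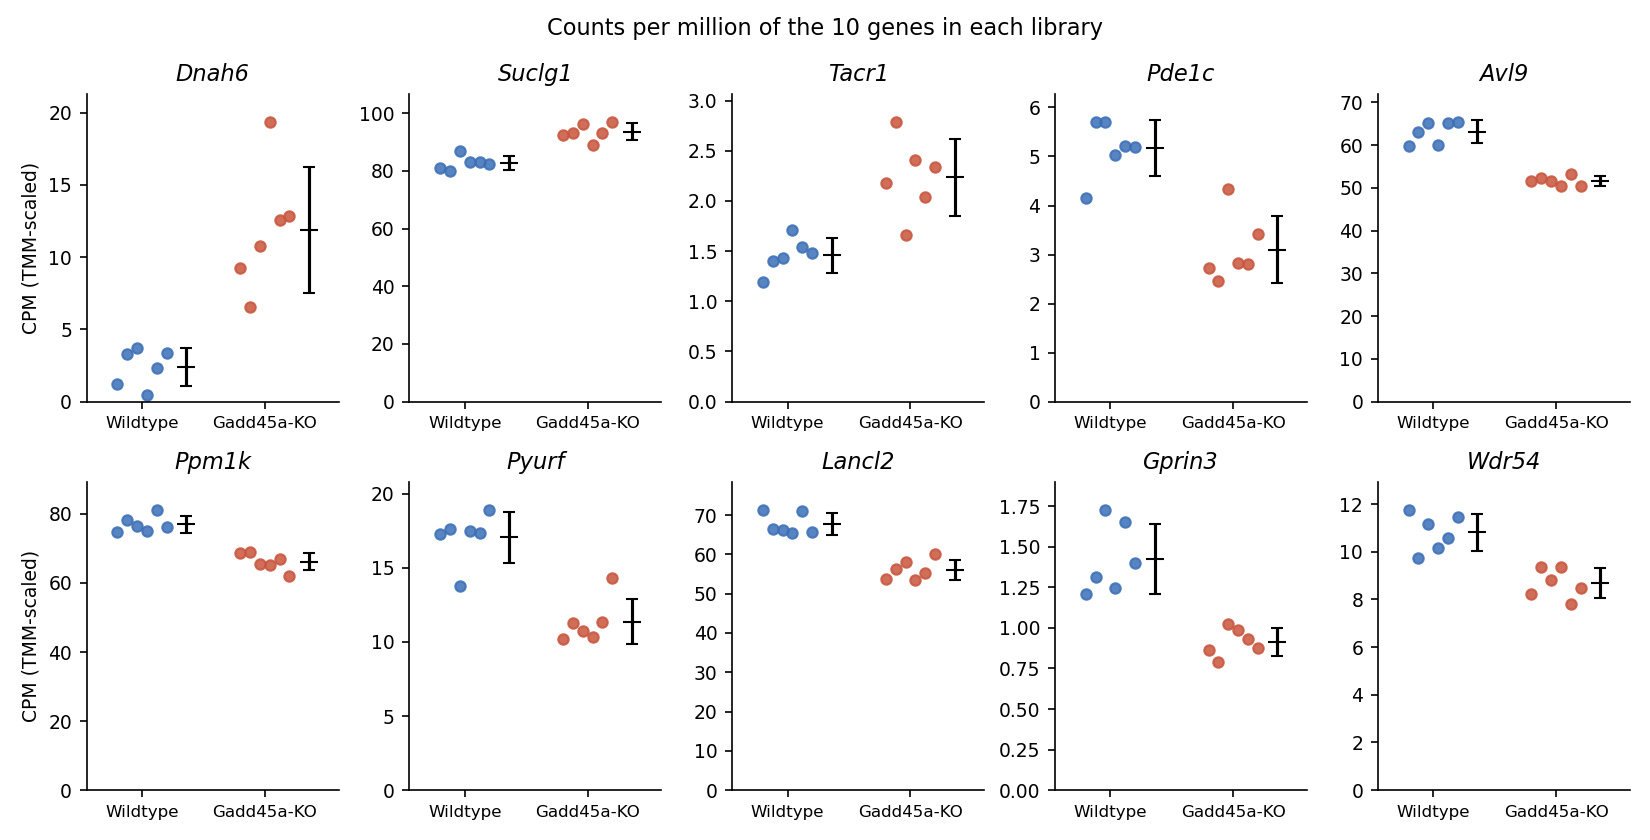
Level of each of the 10 genes in CPM with TMM scaling (vertical axes from 0, 1 panel per gene) for the 6 libraries of each label (points), with the mean and SD beside them. Dnah6 in the Gadd45a-KO libraries sits between 6.53 and 19.4 CPM, all above the Wildtype libraries, while Tacr1, Pde1c and Pyurf overlap between labels.

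Dnah6 was set beside other genes of motile cilia, which in the hippocampal dissection would come mainly from ependymal cells. Of the 25 tested genes in a list of axonemal dyneins and ciliary genes without Dnah6, 0 were higher and 1 was lower at 1% FDR by edgeR, and the same by DESeq2 (at an unadjusted p under 0.05, 1 was higher and 3 lower). The exception was Cfap44, an axonemal protein, at 10.1 ± 1.19 and 7.53 ± 0.702 CPM (log2 difference -0.43, edgeR adjusted p = 0.00657). Over all tested genes 0.0244% were higher and 2.62% lower by edgeR. Lists of this size or shorter, here and below, may therefore hold few calls or none whatever the genes. The list's median log2 difference was 0.16, against 0.00 over all tested genes. Foxj1, the master transcription factor of motile cilia, had 3.91 ± 1.32 and 5.42 ± 3.10 CPM (log2 difference 0.48 ± 0.31 SE). Among the related heavy chains, Dnah5 and Dnah9 had log2 differences of -0.24 ± 0.17 and -0.17 ± 0.08 (SE). Dnah1 (-0.07), Dnah3 (-0.50), Dnah7b (-0.04) and Dnah8 (-0.15) were also below 0. Dnah2 (0.02), Dnah10 (0.25), Dnah11 (0.26), Dnah12 (0.17) and Dnah17 (0.19) were above 0, with standard errors from 0.10 (Dnah2) to 0.55 (Dnah12). Summed over the list, the libraries overlapped, from 123 to 156 CPM (Wildtype) and from 119 to 164 (Gadd45a-KO). Dnah9 and Ccdc39, at 43.4 and 25.3 CPM in the Wildtype libraries, weighed most in this sum, so it says little of the rarer genes. Markers of the choroid plexus, whose epithelium is also ciliated, likewise overlapped at 41.1 to 69.3 and 34.1 to 87.5 CPM, and 0 of 9 passed 1% FDR by edgeR or DESeq2 (1, Otx2, at an unadjusted p under 0.05).

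Suclg1 encodes the alpha subunit of succinate-CoA ligase, the mitochondrial enzyme that turns succinyl-CoA into succinate. It was the most precisely measured of the higher genes and the smallest difference of the 10. Wildtype libraries held 80.0 to 86.8 CPM with a median of 82.7, and Gadd45a-KO libraries 89.0 to 97.1 with a median of 93.1. All 6 Gadd45a-KO libraries were above all 6 Wildtype libraries. The means were 82.8 ± 2.34 and 93.6 ± 2.95 CPM (SD, n = 6 each), a fold of 1.13 and a log2 difference of 0.18 ± 0.03 (SE). Without Gadd45a-KO 2 and 3 the difference was 0.17 and not past 1% FDR. Suclg1 covers chr6:73198376-73226905 on the plus strand and is the next tested gene after Dnah6, 26.7 kb away and read in the opposite direction.

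The partners of Suclg1 in the citric acid cycle had small differences. Of 16 tested genes of the cycle, 0 passed 1% FDR by edgeR or DESeq2 and 0 had an unadjusted p under 0.05, and their log2 differences ran from -0.04 to 0.07 with a median of 0.03. By edgeR 2.62% of all tested genes were lower and 0.0244% higher, so 16 genes may hold no call whatever they are. Suclg2 and Sucla2, the beta subunits that join Suclg1 in the GTP- and ATP-forming enzymes, had log2 differences of 0.07 ± 0.07 and 0.04 ± 0.04 (SE). Levels summed over the 16 genes overlapped, at 2743 to 2992 CPM in the Wildtype libraries and 2864 to 2953 in the Gadd45a-KO libraries.

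Tacr1 encodes the neurokinin-1 receptor, the main receptor of substance P. Its level was low, from 1.19 through a median of 1.46 to 1.71 CPM in the Wildtype libraries and from 1.66 through 2.26 to 2.79 in the Gadd45a-KO libraries. The groups overlapped by a single pair, since Gadd45a-KO 3 (1.66 CPM) fell below Wildtype 4 (1.71 CPM). Means were 1.46 ± 0.173 and 2.23 ± 0.381 CPM (SD, n = 6 each), a fold of 1.53 and a log2 difference of 0.61 ± 0.12 (SE), on 54 to 127 reads per library. Tacr1 was the member nearest to the threshold, at an adjusted p of 0.0089, a value by which the gene was chosen. It was not past 1% FDR in 10 of the 12 fits that left out a library, with log2 differences from 0.55 to 0.69 over the 12. The gene covers chr6:82352328-82510097 on the plus strand and starts 15.4 Mb from Gadd45a.

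Of the tachykinin system, 3 other genes were tested and 0 passed 1% FDR by edgeR or DESeq2, or an unadjusted p of 0.05. Tac1, the precursor of substance P, had 3.49 ± 1.08 and 3.34 ± 0.967 CPM, and Tac2, the precursor of neurokinin B, had 1.19 ± 0.258 and 1.90 ± 1.22 CPM. Tacr3, the neurokinin B receptor, had few reads in both labels, at 0.211 and 0.248 CPM. Tac1, Tac2 and Tacr3 had log2 differences of -0.06 ± 0.21, 0.65 ± 0.31 and 0.20 ± 0.30 (SE).

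The other 7 genes had lower levels under the Gadd45a-KO label. Among all tested genes 430 were lower at 1% FDR, or 2.62%, and again the same comparison chose the 7. Of these genes, 6 lie in a stretch of 3.28 Mb before Gadd45a, from Pde1c to Gprin3, and Wdr54 lies on the far side.

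Pde1c encodes a calcium- and calmodulin-dependent phosphodiesterase that breaks down cAMP and cGMP. Wildtype libraries ran from 4.16 through a median of 5.20 to 5.71 CPM and Gadd45a-KO libraries from 2.46 through 2.82 to 4.34. The labels overlapped by 1 pair, Wildtype 1 at 4.16 and Gadd45a-KO 3 at 4.34, and the other 5 Gadd45a-KO libraries were at or under 3.42. The means of 5.17 ± 0.569 and 3.10 ± 0.684 CPM (SD, n = 6 each) gave a fold of 0.600 and a log2 difference of -0.74 ± 0.13 (SE), the largest among the 7. Its close relatives Pde1a and Pde1b, far more abundant at 198 ± 35.2 and 174 ± 16.2 CPM in the Wildtype libraries, had log2 differences of -0.08 and -0.06, and 0 of 5 genes of a list with the calmodulins passed 1% FDR by edgeR or DESeq2, or an unadjusted p of 0.05. Pde1c covers chr6:56019815-56319628, minus strand.

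Avl9 encodes a conserved protein with a DENN-like fold, linked to late secretory traffic. It ran from 59.8 through 64.1 to 65.5 CPM in the Wildtype libraries and from 50.4 through 51.6 to 53.2 in the Gadd45a-KO libraries. The labels did not overlap, and the Gadd45a-KO libraries were close to each other, with a coefficient of variation of 2.10%. Means were 63.1 ± 2.63 and 51.6 ± 1.08 CPM (SD, n = 6 each), a fold of 0.817 and a log2 difference of -0.29 ± 0.03 (SE). Of 12 tested DENN domain genes elsewhere, 3 were lower at 1% FDR, Dennd4a (-0.34), Dennd4c (-0.35) and Dennd5b (-0.38), and the other 9 had no call, with a list median of -0.02. Over all tested genes 2.62% were lower and 0.0244% higher, so a called gene is nearly always a lower one. Dennd5b lies on chromosome 6 too, far beyond the 20 Mb limit. Avl9 covers chr6:56664899-56711905, plus strand.

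Ppm1k encodes the mitochondrial phosphatase that switches on the branched-chain keto acid dehydrogenase. The Wildtype libraries held 74.9 to 81.1 CPM (median 76.3) and the Gadd45a-KO libraries 62.1 to 69.0 (median 66.2). Every Gadd45a-KO library lay below every Wildtype library. Means of 77.0 ± 2.38 and 66.2 ± 2.52 CPM (SD, n = 6 each) gave a fold of 0.860 and a log2 difference of -0.22 ± 0.03 (SE). Of 19 tested genes of branched-chain amino acid breakdown, 0 passed 1% FDR by edgeR or DESeq2 and 3 had an unadjusted p under 0.05 (Bckdhb and Hibadh higher, Mccc1 lower). The edgeR shares over all tested genes were 2.62% lower and 0.0244% higher. Bckdha, the subunit that Ppm1k dephosphorylates, and its partner Bckdhb had log2 differences of 0.02 ± 0.04 and 0.08 ± 0.04 (SE), and the kinase of the complex, Bckdk, had 0.02 ± 0.04. Ppm1k covers chr6:57456496-57485420, minus strand.

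Pyurf and Lancl2 are neighbours, 10.5 kb apart and read away from each other. The gene counted as Pyurf also carries the name Pigy, because its transcript codes both for a mitochondrial chaperone-like protein and for a subunit of the enzyme that starts glycosylphosphatidylinositol (GPI) anchors. It ran from 13.7 through 17.4 to 18.9 CPM in the Wildtype libraries and from 10.2 through 11.01 to 14.3 in the Gadd45a-KO libraries. The labels overlapped only through Wildtype 3 (13.7 CPM) and Gadd45a-KO 6 (14.3 CPM), each far from the other 5 of its label. The means were 17.1 ± 1.73 and 11.4 ± 1.53 CPM (SD, n = 6 each), a fold of 0.667 and a log2 difference of -0.58 ± 0.09 (SE). None of 6 other tested genes of the first GPI step passed 1% FDR by edgeR or DESeq2, or an unadjusted p of 0.05, and their log2 differences lay between 0.02 and 0.10.

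Lancl2 belongs to the LanC-like family, relatives of bacterial lanthionine cyclases. It ran from 65.4 through 66.3 to 71.3 CPM in the Wildtype libraries and from 53.4 through 55.8 to 60.0 in the Gadd45a-KO libraries. There was no overlap. The means were 67.7 ± 2.75 and 56.1 ± 2.57 CPM (SD, n = 6 each), a fold of 0.829 and a log2 difference of -0.27 ± 0.04 (SE). Of its 2 relatives, Lancl3 was lower at 1% FDR (3.05 ± 0.588 and 1.81 ± 0.280 CPM, log2 difference -0.75, edgeR adjusted p = 0.00422), and Lancl1, the most abundant of the family, stood at 184 ± 4.83 and 182 ± 7.06 CPM. Over all tested genes 2.62% were lower and 0.0244% higher. Pyurf covers chr6:57636570-57642072, minus strand, and Lancl2 chr6:57652595-57689432, plus strand.

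Gprin3, a gene of the G protein-regulated inducer of neurite outgrowth family, was the least abundant of the 10 in reads. Wildtype libraries held 55 to 94 reads and Gadd45a-KO libraries 36 to 53. In CPM these were 1.21 to 1.73 (median 1.36) and 0.791 to 1.02 (median 0.903), with no overlap. Means of 1.42 ± 0.217 and 0.911 ± 0.0855 CPM (SD, n = 6 each) gave a fold of 0.640 and a log2 difference of -0.64 ± 0.12 (SE). It was not past 1% FDR in 7 of the 12 fits that left out a library, nor without Gadd45a-KO 2 and 3, where its log2 difference was -0.64. Gprin1 and Gprin2 had log2 differences of -0.09 ± 0.05 and -0.08 ± 0.33 (SE), and neither passed. Gprin3 covers chr6:59302455-59376284, minus strand.

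Wdr54, a WD-repeat gene, is the only one of the 7 lower genes beyond Gadd45a, 16.1 Mb away at chr6:83099355-83106391 on the minus strand. It ran from 9.73 through 10.9 to 11.8 CPM in the Wildtype libraries and from 7.80 through 8.64 to 9.36 in the Gadd45a-KO libraries. The lowest Wildtype library stood just above the highest Gadd45a-KO library. The means were 10.8 ± 0.787 and 8.67 ± 0.629 CPM (SD, n = 6 each), a fold of 0.802 and a log2 difference of -0.32 ± 0.06 (SE). It was not past 1% FDR in 10 of the 12 fits that left out a library, as for Tacr1, nor without Gadd45a-KO 2 and 3, where its log2 difference was -0.35. Rtkn overlaps it on the opposite strand. 1700003E16Rik, also on the opposite strand, starts 0.007 kb from the start of Wdr54. Their log2 differences were 0.12 and -0.15, and neither passed 1% FDR. The libraries were stranded and were counted by strand.

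The proximal promoter of Wdr54 holds a stretch of the form GTTNCNNNGNAAC, an inverted repeat in its fixed letters, of the kind bound by RFX transcription factors at many ciliary genes. The form was chosen after the sequences had been seen, so nothing is read from the shares below. It was searched in RefSeq promoter windows (GRCm38.p6, 250 bases before to 50 after each start). Its fixed letters read the same on either strand, while the letters at N need not. Of the 10 genes near Gadd45a 9 had such a window and 2 of the 9 hold the letters, of which only Wdr54 is shown here. Of 27025 genes with such a window 303 (1.12%) hold it, and 5 of 22 genes of the ciliary list do. The stretches are shown 5′ to 3′ on the strand of the gene, with the matched letters in capitals, for Wdr54 and, for comparison, for 4 ciliary genes.
Wdr54, chr6:83156420-83156449, minus strand: ggtccacgGTTGCTTGGTAACcgcgtagct
Dnah7b, chr1:46066821-46066850, plus strand: gccagtttGTTGCTTAGCAACgaatcgacc
Dnah9, chr11:66168612-66168641, minus strand: ttccaccaGTTTCCCAGCAACaacgacgcg
Dnaic1, chr4:41569767-41569796, plus strand: gcctgtcgGTTGCTGGGTAACcgcgtcagg
Dnaic2, chr11:114727378-114727407, plus strand: cggccaggGTTGCTAGGCAACtggtaaact
The matched letters end 49 bases before the RefSeq start of Wdr54. In GENCODE M1 1700003E16Rik starts 0.007 kb from Wdr54 on the other strand, so the stretch cannot be assigned to Wdr54 alone. The 4 ciliary genes shown did not pass 1% FDR, with log2 differences of -0.04 (Dnah7b), -0.17 (Dnah9), 0.16 (Dnaic1) and 0.25 (Dnaic2).

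Counted over the 10 genes, 7 had labels without overlap, 2 of them higher and 5 lower. Over all tested genes this was so for 0.183% in the higher and 3.12% in the lower direction, and since the genes were picked for this difference nothing is read from the comparison. Per kilobase of annotated exon, taken over all transcripts of a gene, the mean levels in the Wildtype libraries fell in the order Lancl2 (22.9 CPM per kb), Suclg1 (17.9), Ppm1k (13.8), Avl9 (9.44), Pyurf (4.77), Wdr54 (1.65), Gprin3 (0.460), Pde1c (0.404), Tacr1 (0.225) and Dnah6 (0.181). The paper reports coverage leaning to the 3′ end and 3′ untranslated regions that run past the annotation, so orders on this scale are approximate. In the Gadd45a-KO libraries Suclg1 (20.3 CPM per kb) stood above Lancl2 (18.97), and Dnah6 (0.897) stood above Tacr1 (0.345), Gprin3 (0.294) and Pde1c (0.242).

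**Figure D2:**
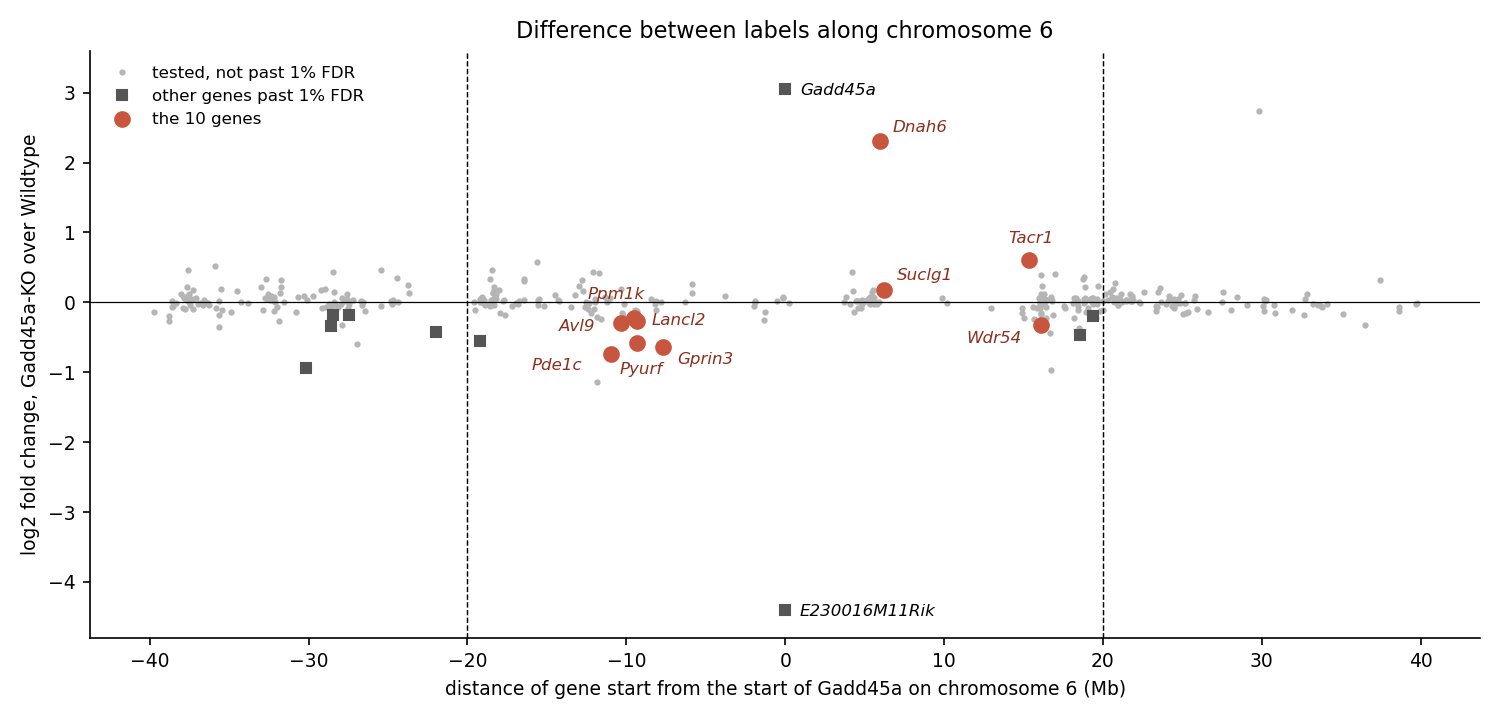
Log2 fold change between labels (vertical axis, Gadd45a-KO over Wildtype) of every tested gene of chromosome 6 within 40 Mb, by the distance of its start from Gadd45a in Mb, with the 20 Mb limits dashed. The lower genes Pde1c to Gprin3 sit 10.97 to 7.68 Mb before Gadd45a, and the higher genes Dnah6, Suclg1 and Tacr1 lie after it, among many genes near 0.

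The position of the genes was then read along chromosome 6. Within 20 Mb of Gadd45a, 215 genes were tested, of which 11 were lower and 4 higher at 1% FDR (6.98%). Without the 10 chosen genes, 4 of 205 were lower and 1 was higher (2.44%). All 10 were past 1% FDR, so leaving them out lowers the share by construction, and nothing is read from it. Beyond 20 Mb on the same chromosome 14 of 596 were lower (2.35%) and 0 higher, and on all other chromosomes 403 of 15554 were lower (2.59%) and 0 higher. At an unadjusted p under 0.05, 664 genes of the other chromosomes were higher and 1452 lower, and DESeq2 called 12 higher and 619 lower. By chromosome, the called share ran from 1.26% on 11 to 5.65% on X, and chromosome 6 as a whole stood at 3.58%.

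The 4 genes higher at 1% FDR all lay in the window around Gadd45a, whereas lower genes were found on every autosome and the X chromosome. Of the 4, 3 were chosen by this comparison within the window and the fourth is Gadd45a, so nothing is read from that split. It changed with the tool, the model and the threshold. At 5% FDR 20 genes were higher, 7 of them in the window. RLE factors gave 5 higher genes, 4 of them in the window, and so did the fit without a count filter. DESeq2 called 19 genes higher, 7 of them in the window (Dnah6, Suclg1, Tacr1 and Gadd45a with Ccser1, Dysf and Nod1). The replicate number as a block gave 5 higher genes, 3 of them in the window. An offset for exon length gave 9, 5 of them in the window, and the offset with the block 10, of which only Dnah6 and Gadd45a were in the window. Without Gadd45a-KO 2 and 3 all 3 higher genes, Gadd45a, Dnah6 and Tacr1, were in it.

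Calls by distance inside the window are given as a description, since most of them are of chosen genes and some bins hold few genes. Over all tested genes 2.65% passed 1% FDR. From 20 to 15 Mb before Gadd45a 1 of 46 was lower, and from 15 to 10 Mb before it 2 of 31. After it, with Gadd45a left out, 1 of 17 was lower from 0 to 5 Mb and 0 of 4 from 10 to 15 Mb. From 15 to 20 Mb after it 3 of 72 were lower and 1 was higher. In the 5 Mb just before Gadd45a 0 of 9 tested genes passed by edgeR or DESeq2 (0 at an unadjusted p under 0.05), from 5 to 10 Mb before it 4 of 14 (28.6%) were lower, and all 4 were chosen genes (Ppm1k, Pyurf, Lancl2 and Gprin3). From 5 to 10 Mb after Gadd45a 2 of 21 passed, Dnah6 and Suclg1, and from 20 to 40 Mb after it 0 of 89 by edgeR (2 lower by DESeq2, 10 at an unadjusted p under 0.05). The other genes of the window at 1% FDR were Gadd45a, E230016M11Rik, Zfp398 (a zinc finger gene, log2 difference -0.55), Alms1 (a basal body gene, -0.46) and Tia1 (an RNA-binding protein, -0.19). The last 3 lay near the edges, 19.2 Mb before and 18.6 and 19.4 Mb after Gadd45a. Just outside the threshold were Zfp638 (-0.18, adjusted p = 0.0139), Kbtbd2 (-0.15, 0.0150) and Dguok (-0.23, 0.0176), and just inside it was Tacr1.

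The genes between the chosen ones are given as a description, since every gene of that stretch past 1% FDR had been chosen, which fixes their count of calls. From Pde1c to Gprin3, 17 genes were tested, and of the 11 that were not chosen 0 passed 1% FDR by edgeR, while 3 had an unadjusted p under 0.05 and DESeq2 called 2 lower, Kbtbd2 and Vopp1. Their median log2 difference was -0.03, and 8 of the 11 lay below 0. Kbtbd2, next to Avl9, and Vopp1, which overlaps Lancl2 on the opposite strand, were the only ones with labels that did not overlap, at 51.2 ± 2.33 and 46.2 ± 0.496 CPM and at 67.8 ± 1.88 and 62.1 ± 1.80 CPM. Fkbp9, Nt5c3, Herc6, Abcg2, Herc3, Nap1l5, Fam13a, Tigd2 and Lsm5 overlapped between labels.

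Nearest neighbours were examined for all 10 genes. The genes on either side included 14 that were not themselves chosen, and 0 of the 14 passed 1% FDR by edgeR, with log2 differences from -0.22 (Eva1a, before Tacr1) to 0.19 (Lsm5, between Pde1c and Avl9). Most genes of the window past 1% FDR had been chosen, which lowers this count, so nothing is read from it. At an unadjusted p under 0.05 there were 4 (Eva1a, Kbtbd2, Vopp1 and Rtkn), and by DESeq2 2, again Kbtbd2 and Vopp1. Tmsb10, before Dnah6, had a log2 difference of 0.01, and Ctnna2, the next tested gene after Suclg1, had 0.06. Pole4, after Tacr1, had -0.07.

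**Figure D3:**
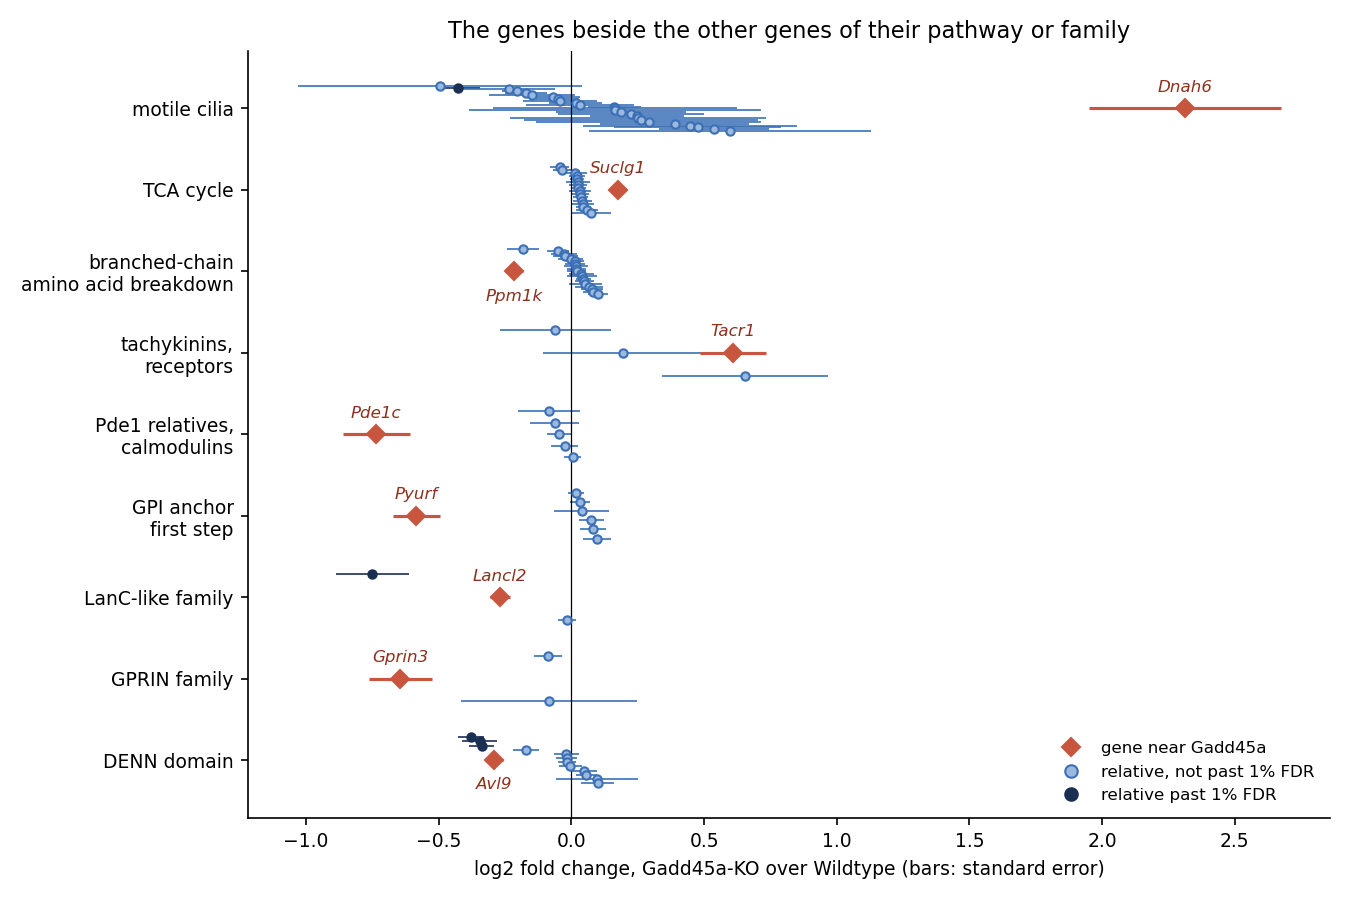
Log2 fold change (horizontal axis, Gadd45a-KO over Wildtype, bars standard errors) of 9 of the 10 genes (diamonds) beside the tested genes of their pathway or family (circles, dark where past 1% FDR). Dnah6 at 2.31 lies beyond all 25 ciliary genes, which run from -0.50 to 0.60. The relatives past 1% FDR, 1 ciliary gene, 3 in the list of Avl9 and 1 in that of Lancl2, are all lower. So are 430 of the 434 genes past 1% FDR.

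Within labels, the 10 genes varied largely apart from each other. After each label's mean had been subtracted, the 45 pairs among them had Pearson correlations of log2 CPM from -0.46 to 0.63 over the 12 libraries, with a median of 0.04. Dnah6 and Gprin3, which differ in opposite directions between labels, were the pair with the highest value. These are descriptions over 12 libraries that share their scaling, and gene pairs are not independent. With 16398 other genes compared over so few libraries, some high values arise whatever the genes, and no reference value was computed, so the genes ranked first are named without reading co-variation from them. Those most like each of the 10 were, for the higher genes, BC049715 and Mdga2 (Dnah6, r = 0.92 and 0.86), Zfand5 and Mrpl48 (Suclg1, 0.95 and 0.89) and Chrnb4 and Spc24 (Tacr1, 0.91 and 0.88). For the lower genes they were Hs3st1 and Papss1 (Pde1c, 0.90 and 0.89), Ap5m1 and Ireb2 (Avl9, 0.94 and 0.93), Kpna4 and Arhgap28 (Ppm1k, 0.93 and 0.91) and Ltbp2 and Cdk4 (Pyurf, 0.96 and 0.91). Lancl2 was most like Hat1 and Rsph3a (0.89 and 0.81), Gprin3 most like Mtmr9 and Opa1 (0.92 and 0.92), and Wdr54 most like Gm4793 and Col27a1 (0.89 and 0.89). BC049715 is the only one of these 20 genes on chromosome 6, and it lies beyond the 20 Mb limit. Mdga2 and Ap5m1 are the only ones of the 20 at 1% FDR, both lower.

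**Figure D4:**
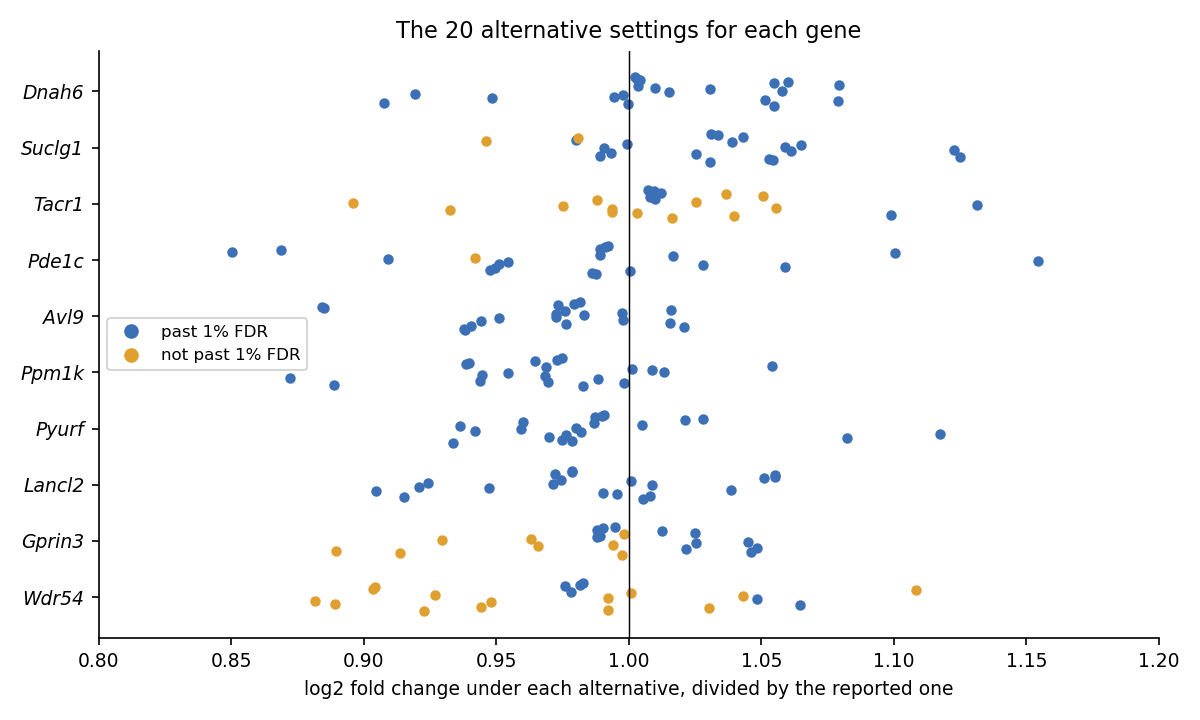
Log2 fold change of each gene under 20 alternative settings, divided by the reported value (horizontal axis), blue where the gene was past 1% FDR and yellow where it was not. Every value has the reported sign, and yellow points are most frequent for Wdr54, Tacr1 and Gprin3.

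The 10 differences were recomputed under 20 settings each, as a description of how near each gene lay to the threshold that chose it. All 200 values had the sign reported, and 38 were not past 1% FDR. These 38 were 14 of Wdr54, 13 of Tacr1, 8 of Gprin3, 2 of Suclg1 and 1 of Pde1c (without Gadd45a-KO 1). Without Gadd45a-KO 2 and 3, the libraries with the high thalamic markers, Dnah6 stood at a log2 difference of 2.50, Suclg1 at 0.17, Tacr1 at 0.61, Pde1c at -0.81, Avl9 at -0.30, Ppm1k at -0.23, Pyurf at -0.56, Lancl2 at -0.28, Gprin3 at -0.64 and Wdr54 at -0.35.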

How the data were processed

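Per the labels and the study's methods, the authors made stranded poly(A) libraries, aligned single-end reads to NCBIM37 (mm9) with TopHat 1.4.1 and counted reads per Ensembl gene and strand with HTSeq 0.5.4p3. The deposited values are these raw counts, whole reads per gene, not normalized. Rows that name no gene (5 per file) were left out.

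The counts were analysed in R 4.3.3 with edgeR 4.0.16: TMM factors, filterByExpr, quasi-likelihood test of 6 Gadd45a-KO against 6 Wildtype libraries without covariates, Benjamini-Hochberg adjustment over all 16399 tested genes, 1% FDR. CPM use the TMM factors. Positions come from GENCODE M1, of the same build (37205 of 37991 IDs matched). Alternatives were DESeq2 1.42.0, RLE factors, other count filters, 5% FDR, a replicate block, an exon length offset (spline, 5 degrees of freedom), each library left out in turn, and, chosen after seeing the data, Gadd45a-KO 2 and 3 left out. The fits were tested on simulated data. Replicates are separate mice.

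The genes and lists were chosen with earlier results of these data known. Named were the 10 genes, their nearest tested neighbours, genes at 1% FDR within 20 Mb and the 3 just outside it, listed genes at 1% FDR or related to a member, and the 2 genes most like each member within labels. Some items covered by this rule are not reported here.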

Additional observations from a re-analysis of the deposited data

Results flagged for a closer look

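In 54 groups of 6 values (the 10 genes, Gadd45a, E230016M11Rik, 13 gene lists and 2 measures of depth, in each label), 4 single libraries stood far from the other 5 of their label by Dixon's ratio, where chance gives about 2.7 at 1 in 20. For Pyurf, Wildtype 3 stood low at 13.7 CPM (others 17.3 to 18.9) and Gadd45a-KO 6 stood high at 14.3 CPM (others 10.2 to 11.3). These are the libraries through which the Pyurf groups overlap, and the log2 difference of Pyurf lay between -0.65 and -0.55 in the 12 fits that left out a library. E230016M11Rik stood high in Wildtype 6 at 3.88 CPM (others 3.27 to 3.47). The summed level of the tachykinin genes Tac1, Tac2 and Tacr3 was 9.43 CPM in Gadd45a-KO 2 (others 3.89 to 5.78), which is a library with high thalamic markers. The part of those markers in the value was not tested.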

How the results depend on the processing

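At 1% FDR, 434 genes passed (430 lower, 4 higher), 15 within 20 Mb of Gadd45a, 6 of the listed genes and all 10 members. DESeq2 gave 680 (661 lower, 19 higher), 7 higher in the window. A 5% FDR gave 746 (726 lower, 20 higher) and 23 in the window, 7 of them higher. An exon length offset without the block gave 281 (272 lower, 9 higher). With the replicate block as well it gave 304 (294 lower, 10 higher), 2 higher in the window, 3 listed genes and 7 members. Without Gadd45a-KO 2 and 3 there were 202 (199 lower), 3 listed genes and 7 members. Leaving out each library in turn gave 242 to 470 genes (239 to 467 lower, 3 to 4 higher), 8 to 14 in the window, 3 to 6 listed genes and 6 to 9 members, the fewest members and window genes without Gadd45a-KO 1. The gene count moved by over 1.5 times without Gadd45a-KO 1 or 6 (252 each), Gadd45a-KO 2 (279), Wildtype 3 (272), Wildtype 5 (242, with 9 in the window) and Wildtype 6 (264), and 3 listed genes were left without Gadd45a-KO 2, 3 or 6 or Wildtype 2. Same-numbered libraries correlated above 0.1 for 5 of the 6 numbers (0.10 to 0.26) and at -0.08 for number 6, against means of -0.07 to 0.02 with other numbers. Only number 3 correlated best with its own number. The labels do not say that a number marks a shared litter or day, and since number 6 fell short the numbers were not taken to pair the mice. The replicate block alone gave 514 genes and 8 members, without Tacr1 and Wdr54 (adjusted p = 0.0147 and 0.0298). Mean levels of the members moved by less than 1 SD in all 140 alternatives. The cause of these shifts was not tested. Gprin3, Tacr1 and, in Wildtype libraries, Dnah6 rest on at most 202 reads per library, which limits their precision.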
